A study of Mus musculus with 40 samples.

Results

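The kidney of male C57BL/6 mice was compared between 4 weeks of age, when its cells still divide slowly according to the labels, and 8 weeks, when they divide very slowly. The members are the 5 arrays titled as kidney at 4 weeks and the 5 titled as kidney at 8 weeks, 10 of the 40 arrays of a series that also covers kidney at 1 week, lung at 1, 4 and 8 weeks and heart at 1 and 4 weeks. Each group holds 5 animals per the design text, the RNA came from whole organ extracted with Trizol, and the groups share strain and sex and carry no transgene or treatment that the labels name. The comparison asks which transcripts still changed in the kidney over the interval that spans puberty and the last slowing of growth. In brief, 85 of 13644 genes tested changed. Genes of DNA replication and mitosis and some collagen genes were lower at 8 weeks, a few genes of amino acid, lipid and foreign-compound metabolism and of antigen presentation were higher, and the transporters of the nephron passed the test in neither direction.

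The mouse kidney finishes forming new nephrons soon after birth, and from then on it grows by division and enlargement of tubule cells, while stromal cells and the epithelium lay down collagens and basement membrane. Cell division needs a burst of short-lived transcripts, made at the start of DNA synthesis (helicase subunits, nucleotide enzymes) and before mitosis (kinetochore, spindle and chromosome proteins), whose levels fall when fewer cells divide. The maturing proximal tubule takes up filtered amino acids, breaks them down and metabolises steroids and foreign compounds, and in male mice part of this programme is known to follow testosterone, which rises at puberty.

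Values are array signals on a linear scale, on Affymetrix mouse whole-genome arrays, with each array's mean after trimming 2% at each end at 500. Changes are differences of mean log2(signal + 16), 8 minus 4 weeks, given with their standard error (SE). The 16 added keeps dim genes from swinging and makes a fold change of a dim gene too small. One probe set stood for each gene, and a gene was tested when its highest kidney group mean reached a signal of 117.9, the 40th percentile of all values. Below, a gene rose or fell, or was called, when its Benjamini-Hochberg adjusted p in limma was under 0.05 over all 13644 genes. The proximal tubule gene Slc34a1 (22914 to 31327 at 4 weeks and 25530.1 to 38878 at 8 weeks), the thick ascending limb gene Umod (24451 to 31815 and 25486 to 39080.4), the collecting duct gene Aqp2 (4002 to 5743 and 4698 to 5965) and the podocyte gene Nphs1 (495 to 590.0 and 387 to 592) were bright on all 10 arrays and overlapped between the ages. The array of 4 weeks replicate 3 stood apart. Its score on the first principal component, which held 29.2% of the variance over the 10 arrays, was 54.5 against -12.6 to 7.83 for the others, and its hybridisation controls were at 12.27 on the log2 scale against 11.33 to 11.48 on the other arrays of 4 weeks. On 8 weeks replicate 5 these controls were at 12.73, against 11.42 to 11.61. The count of genes called was 83 without the first of these arrays and 54 without both. With arrays of high controls as a block, chosen after seeing the data, it was 116, with all 85 genes of the main fit among them. The part of these controls in the results was not tested beyond these fits. The log2 difference between the 3' and 5' actin probe sets, which grows as RNA degrades, was 0.61 to 1.43 at 4 weeks and 0.73 to 0.99 at 8 weeks (exact permutation test, two-sided, p = 0.754).

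Of the 13644 genes, 85 (0.623%) were called, 31 higher (0.227%) and 54 lower (0.396%) at 8 weeks, and 29 of them had moved at least 2-fold. At an unadjusted p under 0.05, 3.28% of all genes were higher and 4.68% lower. These shares are to be set beside every list count below. The number of rises varied with the arrays used: 18 were called without 4 weeks replicate 4 or 5 or without 8 weeks replicate 2 or 3, 19 without 4 weeks replicate 2, and 20 without 8 weeks replicate 5. It was 21 without 8 weeks replicate 4, 24 without 8 weeks replicate 1, and 33 without 4 weeks replicate 1 or 3. The falls ranged from 34 (without 8 weeks replicate 2) to 51 with 1 array left out. Fitting all 40 arrays together gave 16 rises and 53 falls, with 46 of the 85 genes among them. That fit includes the arrays labelled lung 1 week replicate 4 and heart 1 week replicate 5, whose organ marker genes go against their labels. Their part in these counts was not tested. A fit of the 10 arrays alone, without the kidneys of 1 week, called 84 genes, 66 of the 85 and 18 others (12 higher and 6 lower). The middle of the distribution stayed near 0, with a median log2 change of 0.0037, a 10th percentile of -0.23 and a 90th percentile of 0.25. Between 1 and 4 weeks 5827 genes (42.7%) were called in the same fit, which shares the 4-week arrays with this comparison. The 5 arrays of 4 weeks and the 5 of 8 weeks did not overlap for 405 genes (2.97%), higher for 174 (1.28%) and lower for 231 (1.69%), and for 82 of the 85 called. The 3 called genes whose arrays overlapped were Dbf4, Gins2 and Ifitm1, all lower at 8 weeks. Among the called genes, 19 had a mean signal under 117.9 at 4 or at 8 weeks, so their fold changes are the most compressed.

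**Figure D1:**
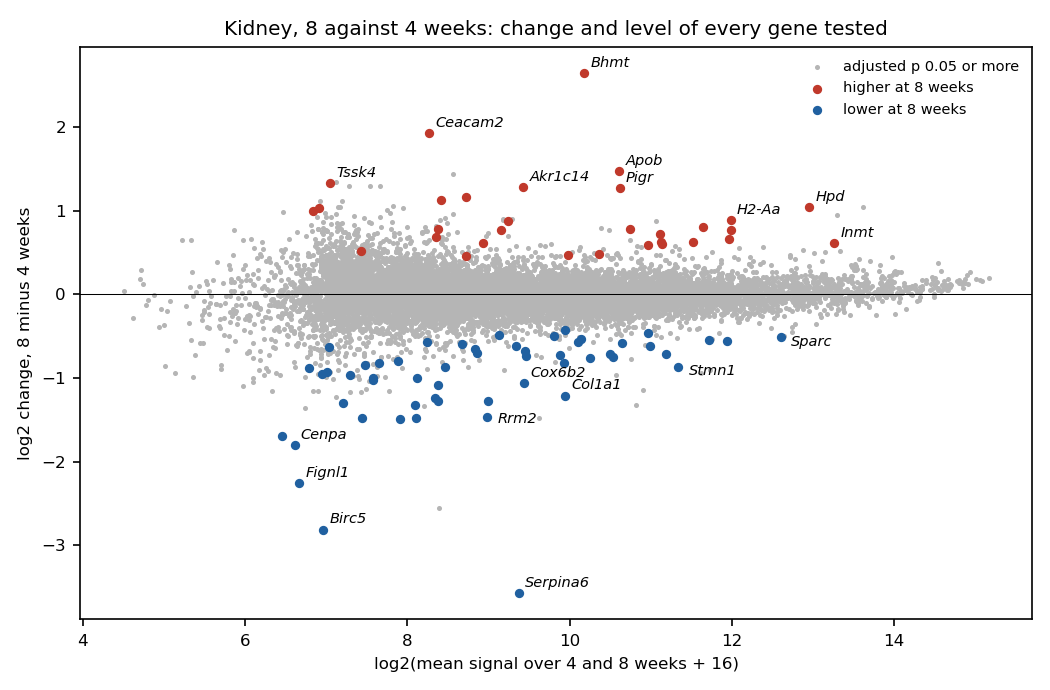
Log2 change from 4 to 8 weeks of each of the 13644 genes tested (vertical axis) against log2 of its mean signal over both ages plus 16 (horizontal axis), with the 31 genes higher at 8 weeks in red and the 54 lower ones in blue. The largest fall, of Serpina6 (-3.57), and the largest rise, of Bhmt (2.65), lie in the middle of the signal range, and several of the largest falls (Birc5, Fignl1, Cenpa) lie at the dim end.

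Transcripts of cell division were the largest group among those that fell. Of 94 such genes on the array 91 were tested, 20 fell and 0 rose, against 0.396% of all genes that fell. Of the 91, 80 had a change below 0, and their median was -0.42 against 0.0037 for all genes. At an unadjusted p under 0.05, 0 of them were higher and 49 lower, against 3.28% of all genes higher and 4.68% lower at that level. In a whole organ, fewer dividing cells and less of each transcript per cell cannot be told apart, and this holds for every result below.

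Among the genes of DNA replication, 34 were tested and 8 fell (median -0.40, unadjusted p under 0.05 and lower in 17). Rrm2 encodes the regulated subunit of ribonucleotide reductase, which makes the deoxynucleotides for DNA synthesis. Its signal was 648, 905, 689, 686 and 686 on the 5 arrays of 4 weeks and 191, 192, 297, 265 and 332 on those of 8 weeks, so that every array of 8 weeks lay below every array of 4 weeks. Rrm2 fell 2.76-fold (log2 change -1.47, SE 0.16, limma adjusted p = 3.25e-04). Tk1, the salvage enzyme thymidine kinase, fell by 1.32, from 324 to 428 at 4 weeks to 68.2 to 185 at 8 weeks. The MCM helicase, which unwinds DNA at the replication fork, is a ring of related subunits, and the genes of 4 of them fell. Mcm6 was at 561, 838, 673, 742 and 692 at 4 weeks and 294, 162, 318, 386 and 282 at 8 weeks (log2 change -1.27, SE 0.18). Mcm5 fell by 1.23, Mcm3 by 1.0 and Mcm7 by 0.58. For Mcm2 the change was -0.90 (SE 0.29, limma adjusted p = 0.296) and for Mcm4 -0.16 (SE 0.32, limma adjusted p = 0.973), neither called. Gins2, a partner of that helicase, fell by 0.97, and Uhrf1, which carries DNA methylation through replication, fell by 0.95. Pcna, the sliding clamp of the polymerases, with a signal of 3239.6 ± 609 (SD, n = 5) at 4 weeks and 2411 ± 229 (SD, n = 5) at 8 weeks, was not called (-0.41, SE 0.13, limma adjusted p = 0.25), although its arrays did not overlap.

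Among the genes of mitosis, 57 were tested and 12 fell (median -0.44, unadjusted p under 0.05 and lower in 32). Birc5 encodes survivin, a member of the complex that corrects chromosome attachment to the spindle. Its signal was 210.0, 253, 199, 155 and 199 at 4 weeks and 12.1, 13.1, 19.5, 13.0 and 17.0 at 8 weeks. The values of 8 weeks are close to the 16 added before the logarithm, so the fitted fall of 2.82 (SE 0.14, limma adjusted p = 1.98e-08) depends on that offset. Cenpa, the histone that marks the centromere, was at 142, 146, 120.3, 133 and 127 at 4 weeks and 32.5, 17.1, 17.1, 16.3 and 66.6 at 8 weeks, with the fifth array of 8 weeks the nearest to the younger group (log2 change -1.81, SE 0.21). Nuf2, a part of the kinetochore's microtubule clamp, fell by 1.70. The mean signals of 8 weeks, 29.9 for Cenpa and 27.3 for Nuf2, are also near the 16 added. Under other offsets, filters, normalizations, probe sets and fits the change ran from -2.35 to -0.69 for Cenpa and from -2.31 to -0.99 for Nuf2. The size of both falls thus depends on the settings. Mki67, the gene of the Ki-67 antigen by which pathologists count dividing cells, was at 308, 476, 302, 326 and 274 at 4 weeks and 81.8, 59.1, 124, 128 and 174 at 8 weeks, a fall of 1.50 (SE 0.24, limma adjusted p = 0.00697).

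Cdk1, the kinase that starts mitosis, was at 308, 544, 403, 302 and 370.1 at 4 weeks and 122, 113, 136, 68.7 and 222 at 8 weeks. It fell 2.8-fold (log2 change -1.48, SE 0.22), and its cyclin Ccnb2 fell by 1.48 (SE 0.28). Cdc20, which activates the ligase that ends mitosis, fell by 1.09, and the mitotic kinase gene Pbk by 1.28. Falls of 1.02 for the spindle protein gene Nusap1, 0.80 for Top2a, the topoisomerase that untangles sister chromosomes, and 0.63 for Anln, which works in the cleavage furrow, were smaller. Stmn1, a microtubule regulator, was at 3376, 3239, 3416, 2962 and 3647 at 4 weeks and 1912, 1753, 1699.9, 1879 and 1845 at 8 weeks. Both groups of 5 Stmn1 arrays were tight and far apart (log2 change -0.86, SE 0.09, limma adjusted p = 3.25e-04). Among 15 inhibitors of the cell cycle that were tested, 0 were called, with 2 lower and 0 higher at an unadjusted p under 0.05.

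**Figure D2:**
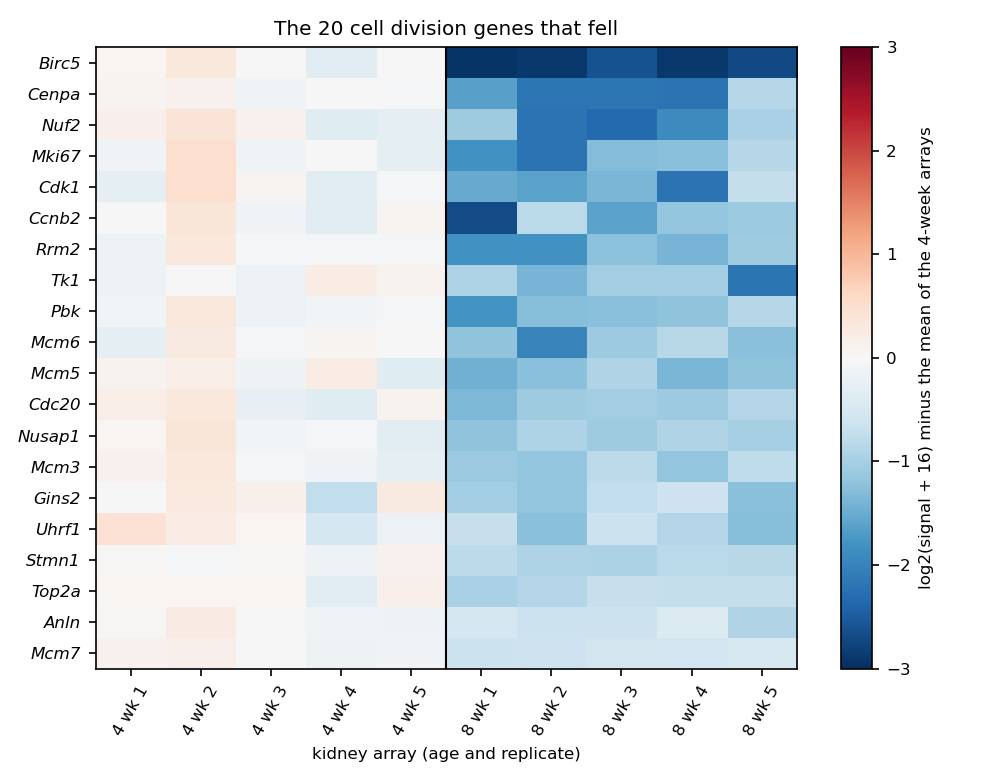
Heat map of the 20 cell division genes that fell (rows) on the 10 kidney arrays (columns, age and replicate), coloured by log2(signal + 16) minus the gene's mean over the arrays of 4 weeks, from blue (lower) to red (higher). The arrays of 8 weeks are blue for all 20 genes, darkest for Birc5, and Ccnb2 is lowest on replicate 1 while Tk1 is lowest on replicate 5.

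The promoters of genes like these are known for CCAAT boxes, which bind the factor NF-Y, and for the cell cycle genes homology region, TTTGAA or TTCGAA, which binds the DREAM and MuvB complexes. As picked examples, the 160 bases before the transcription start of 4 of the genes are given, 5' to 3' in the direction of the gene, from RefSeq (GRCm38.p6). Capitals mark CCAAT or its reverse complement ATTGG, and TTTGAA or TTCGAA or the reverse complement TTCAAA. Cdk1 (chr10:69352913-69353072, minus strand), Top2a (chr11:99024190-99024349, minus strand) and Mki67 (chr7:135716380-135716539, minus strand) hold both kinds of motif, and Birc5 (chr11:117849077-117849236, plus strand), the gene of the group with the largest change, holds neither.
Cdk1: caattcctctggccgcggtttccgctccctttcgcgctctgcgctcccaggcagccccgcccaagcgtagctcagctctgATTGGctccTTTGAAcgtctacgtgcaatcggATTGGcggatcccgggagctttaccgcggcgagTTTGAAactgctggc
Top2a: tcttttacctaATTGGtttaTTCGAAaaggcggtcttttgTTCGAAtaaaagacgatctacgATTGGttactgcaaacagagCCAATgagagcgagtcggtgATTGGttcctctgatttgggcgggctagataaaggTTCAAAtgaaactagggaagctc
Mki67: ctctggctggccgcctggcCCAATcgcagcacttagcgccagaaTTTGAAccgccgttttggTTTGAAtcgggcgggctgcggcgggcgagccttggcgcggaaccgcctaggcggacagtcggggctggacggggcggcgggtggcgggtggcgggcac
Birc5: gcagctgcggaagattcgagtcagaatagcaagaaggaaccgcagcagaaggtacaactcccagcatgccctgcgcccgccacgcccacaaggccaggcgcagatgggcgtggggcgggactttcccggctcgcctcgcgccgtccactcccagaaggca
In the stretch of Cdk1 2 CCAAT boxes start 80 and 48 bases before the start and 2 homology regions 71 and 15 bases before it. That of Top2a has 4 CCAAT boxes and 3 homology regions, and that of Mki67 1 and 2. Among the other division genes that fell and had a promoter sequence, only Cdc20 held a homology region in these 160 bases. Anln, Nuf2, Nusap1 and Tk1, like Birc5, held neither motif there.

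Over windows from 250 bases before to 50 after the start, both strands searched, 17 of the 20 genes that fell had a window. Of these 12 (70.6%) held CCAAT, 8 (47.1%) a homology region and 7 (41.2%) both. Among the promoters of all 27025 genes in the RefSeq table these shares were 37.9%, 19.4% and 7.7%, and among the 31 genes that rose, 29 with a window, they were 44.8%, 20.7% and 3.45%. The motif TTTCGCGC, bound by E2F factors, was in 4 of the 17 windows (23.5%: Cdk1, Mcm5, Mcm6 and Mcm7) and in 0.318% of all promoters. The 75 cell division genes with a window among the 91 tested, called or not, gave 68% for CCAAT and 53.3% for the homology region, shares close to those of the genes that fell, and 8% for TTTCGCGC. None of these motifs contains another. A match is a run of letters and not a measured binding site.

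Several genes outside the lists have known roles beside those above and were chosen for mention after their values were seen. Pola2, a subunit of the polymerase that starts new DNA strands, fell by 0.85 (SE 0.17), Dbf4, which activates the kinase that fires replication origins, by 0.93 (SE 0.20), and Tcf19, a growth-regulated gene, by 0.59 (SE 0.10). Fignl1, which acts in DNA repair, ran from 50.1 to 258 at 4 weeks and from 6.40 to 34.2 at 8 weeks on the probe set used. That is a fall of 2.26 (SE 0.30), but its second probe set, at a mean of 210.3 and 242, changed by 0.31 (unadjusted p = 0.394), so the direction of Fignl1 is uncertain. The second probe set of Top2a likewise gave 0.11 in place of -0.80.

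Genes of the extracellular matrix were the second group that fell. Of 40 genes of fibrillar collagen and interstitial matrix 4 fell and 0 rose (median -0.19, 16 lower and 1 higher at an unadjusted p under 0.05). Of all genes 0.396% fell, and 4.68% were lower and 3.28% higher at that level, with a median of 0.0037. Col1a1 encodes the main chain of type I collagen, the chief collagen of scar and stroma. Its signal was 1261, 1663, 1163, 1208 and 1444 at 4 weeks and 691, 478, 682, 730.1 and 356 at 8 weeks, without overlap, a 2.32-fold fall (log2 change -1.21, SE 0.23, limma adjusted p = 0.0212). The other type I chain, Col1a2, was at -0.54 (SE 0.12) and not called (limma adjusted p = 0.0683, and 0.0428 on the 10 arrays alone). Col6a1, a chain of the beaded microfibril collagen, was at 1188, 1099, 1025, 1351 and 1129 at 4 weeks and 669, 667, 712, 792 and 643 at 8 weeks (log2 change -0.72, SE 0.09, limma adjusted p = 0.00108). Col3a1 fell by 0.56 and Sparc, a collagen-binding glycoprotein, by 0.51, with limma adjusted p of 0.043 and 0.0234. Sparc had 1 other probe set in each direction.

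Of 23 basement membrane genes 3 fell and 0 rose (median -0.32, 10 lower and 0 higher at an unadjusted p under 0.05). Of all genes 0.396% fell and 4.68% were lower at that level. Col4a2, which with Col4a1 forms the collagen network of most basement membranes, was at 4045, 3711, 3859.7, 3789.5 and 4480.1 at 4 weeks and 2874, 2507, 2837, 2689 and 2632 at 8 weeks, a narrow but complete separation (log2 change -0.55, SE 0.09, limma adjusted p = 0.0108). Col4a1 was at -0.45 (SE 0.10, limma adjusted p = 0.0519), just outside the threshold, and was called on the 10 arrays alone (limma adjusted p = 0.0347). Col4a5, a chain of the glomerular network that is mutated in Alport syndrome, fell by 0.46 (limma adjusted p = 0.0479), and Frem2, which anchors fetal epithelia to their membrane, by 0.65 (limma adjusted p = 0.0253). Of the 7 matrix genes called in both lists, 2 (Col4a2 and Col6a1) stayed called whichever of the 10 arrays was left out. The collagen count was 1 and the basement membrane count 0 without both arrays of high hybridisation controls.

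Markers of the cells that make this matrix were set beside it. Of 18 genes of fibroblasts, pericytes and smooth muscle tested 0 were called and 0 had an unadjusted p under 0.05 (median -0.04). The mean log2 level of the list's 19 genes on the array ran from 8.77 to 9.03 at 4 weeks and from 8.78 to 9.05 at 8 weeks. Of 22 endothelial genes 0 were called (median -0.11, 2 lower at an unadjusted p under 0.05). Fstl1, a secreted glycoprotein of mesenchyme that is in no list, fell by 0.76 (SE 0.13, limma adjusted p = 0.0108), and the secreted protease gene Adamts9 by 0.74, with 2 other probe sets in the opposite direction. Vegfd, a growth factor of lymphatic vessels, fell by 0.62, and the prostacyclin and prostaglandin D synthase genes Ptgis and Ptgds fell by 0.87 and 0.71.

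Genes of amino acid breakdown included the largest rise. Of 48 genes of amino acid and one-carbon metabolism 3 rose and 0 fell (median 0.13, 10 higher and 1 lower at an unadjusted p under 0.05), against 0.227% of all genes that rose. Bhmt, which remakes methionine from homocysteine with betaine as the methyl donor, was at 350.5, 292, 320.5, 352 and 211 at 4 weeks and 1686, 2044, 1940.2, 2015 and 2210.3 at 8 weeks. The lowest array of 8 weeks was well above the highest of 4 weeks, and the rise was 6.28-fold (log2 change 2.65, SE 0.20, limma adjusted p = 6.70e-06). At 1 week its mean was 96.6. The neighbouring paralog Bhmt2 was at 1695 ± 194 (SD, n = 5) at 4 weeks and 2012 ± 229 (SD, n = 5) at 8 weeks and was not called (limma adjusted p = 0.728).

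Hpd, the dioxygenase of tyrosine breakdown, was at 5533, 3969, 4615, 5563 and 6377 at 4 weeks and 11037, 10384, 10448, 10175 and 11053 at 8 weeks, with little spread among the older animals (log2 change 1.04, SE 0.16, limma adjusted p = 0.0045). Ddc, the aromatic amino acid decarboxylase with which the proximal tubule makes dopamine, was at 3225, 2730.5, 3200.0, 2753 and 3092 at 4 weeks and 4967, 5352, 5191, 5148 and 4885 at 8 weeks (log2 change 0.77, SE 0.10, limma adjusted p = 0.00146). Arg2, the mitochondrial arginase, pointed the other way without passing (-0.48, SE 0.11, limma adjusted p = 0.0558). Enzyme genes outside the list that rose, chosen after their values were seen, were Ethe1 (0.79), which oxidises sulfide in mitochondria, Ldhd (0.61), which uses D-lactate, and Inmt (0.61), a methyltransferase with a mean signal of 11788 at 8 weeks.

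Apob carries the lipids of low-density and very-low-density lipoprotein. Its signal was 833, 691, 1062, 881 and 640.1 at 4 weeks and 2056, 2476, 2441, 2148 and 2285 at 8 weeks, and the rise was 2.78-fold (log2 change 1.47, SE 0.19, limma adjusted p = 0.00146). It was the 1 gene of 31 in the list of cholesterol and lipid synthesis that rose, and 0 fell. The list's median was 0.22 against 0.0037 for all genes, and 13 members were higher and 1 lower at an unadjusted p under 0.05. At that level 3.28% of all genes were higher and 4.68% lower. Scd1, the stearoyl-CoA desaturase, had the second largest change of the list (1.05, SE 0.32) and a limma adjusted p of 0.256 (0.0227 on the 10 arrays alone), and Fads2, another desaturase gene, had 0.47 (SE 0.11, limma adjusted p = 0.0725). Mogat1, an acyltransferase of triglyceride synthesis outside the list, rose by 0.59.

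Fat oxidation genes gave 0 calls among 31 (median -0.07, 2 higher and 7 lower at an unadjusted p under 0.05). Their lowest values were those of Pdk4, the kinase that shuts off pyruvate use (-1.32, SE 0.36, limma adjusted p = 0.141), and of the carnitine carrier gene Slc25a20 (-0.90, SE 0.21, limma adjusted p = 0.067). G0s2, an inhibitor of triglyceride breakdown, fell by 0.82 (SE 0.17). Of 46 oxidative phosphorylation genes 0 were called (median 0.05, 1 higher at an unadjusted p under 0.05), while Cox6b2, a cytochrome oxidase subunit known from testis and in no list, was at 949.8, 809, 1032, 828 and 983 at 4 weeks and 485, 412, 419, 426 and 422 at 8 weeks and fell by 1.06 (SE 0.10, limma adjusted p = 6.75e-05). Of 21 genes of glycolysis and gluconeogenesis Aldoc, an aldolase, fell by 0.57 (limma adjusted p = 0.015), and of 26 ribosomal protein genes 0 were called (1 lower at an unadjusted p under 0.05).

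Markers of fat cells differed between arrays. Adipoq, made by fat cells, was at 1295, 211, 483, 60.7 and 62.3 at 4 weeks and 431, 3.40, 62.5, 94.3 and 102 at 8 weeks, with 4 weeks replicate 1 the highest, and the mean of the adipocyte list ran from 7.50 to 9.66 at 4 weeks and from 7.54 to 8.65 at 8 weeks. Of its 8 tested genes 0 were called, with 1 lower at an unadjusted p under 0.05. Without that array the count of called genes was 81, and the part of fat in the lipid genes was not tested.

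Liver transcripts were examined beside Bhmt, Hpd and Apob, which liver also makes. Of 14 genes of the liver list 0 were called (median 0.04, 1 higher and 1 lower at an unadjusted p under 0.05), 3 were higher and 0 lower without overlap (against 1.28% and 1.69% of all genes), and its mean ran from 7.74 to 8.07 at 4 weeks and from 7.95 to 8.26 at 8 weeks. Alb, the gene of serum albumin, was nonetheless at 414, 391, 322, 390.5 and 416 at 4 weeks and 681, 748, 649, 701 and 932 at 8 weeks without overlap. Its SE of 0.62 came from the fit that included the kidneys of 1 week, where it varied, and limma's adjusted p was 0.817 there. In a fit of the 10 arrays alone Alb was called (log2 change 0.91, SE 0.12, limma adjusted p = 0.00651), as was the fibrinogen gene Fgg (0.96, SE 0.17, limma adjusted p = 0.0367), whose arrays did not overlap either. The part of liver-type transcripts in the rises was not tested.

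Foreign-compound metabolism was described by a list of which 42 genes were tested, 2 rose and 0 fell (median 0.11, 9 higher and 1 lower at an unadjusted p under 0.05). Of all genes 0.227% rose, and 3.28% were higher and 4.68% lower at that level. Aldh1a1, which makes retinoic acid from retinal, rose from 346 to 451 to 618 to 813 (log2 change 0.78, SE 0.12, limma adjusted p = 0.00514). Cyp1b1 rose by 0.48, at the edge of the threshold (SE 0.10, limma adjusted p = 0.0495), and was called in 1 of the 10 fits that leave out an array. Cyp2c23, outside the list, which makes vasoactive lipids from arachidonic acid in the tubule, rose from 2043 to 2613 to 3264 to 3836 (log2 change 0.63, limma adjusted p = 0.00659).

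Because the interval spans puberty, genes known to differ between male and female kidney were examined. Of 22 male-biased genes tested 1 rose and 0 fell (median 0.10, 4 higher and 1 lower at an unadjusted p under 0.05). Without overlap 4 were higher and 0 lower, against 1.28% and 1.69% of all genes. The mean log2 level of the list's 23 genes on the array ran from 10.34 to 10.41 at 4 weeks and from 10.45 to 10.56 at 8 weeks, a small shift (0.11) without overlap. Cyp2d9, a male-biased steroid hydroxylase of a family of near-identical copies, was at 488, 368, 303, 431 and 470.5 at 4 weeks and 892, 827, 671, 616 and 846 at 8 weeks (log2 change 0.88, SE 0.18, limma adjusted p = 0.0387), and it was called in 2 of the 10 fits without an array. Ugt2b38 (0.57, limma adjusted p = 0.0558, and 0.0392 on the 10 arrays alone) and Cyp2d12 (0.48, limma adjusted p = 0.0812) lay just outside the threshold, and the count of male-biased genes that rose was 3 with an offset of 64 or with quantile normalization.

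The textbook androgen targets of mouse kidney did not pass. Kap, the kidney androgen-regulated protein, was at 26939.6, 23669, 38627, 29871 and 35003 at 4 weeks and 36643, 31325, 28299, 32902 and 46527 at 8 weeks, with the groups overlapping (log2 change 0.19, SE 0.16, limma adjusted p = 0.887). Odc1, the first enzyme of polyamine synthesis, was at 0.06 (SE 0.22) and Gusb, beta-glucuronidase, at -0.06 (SE 0.12). The cystine carrier gene Slc7a13, also male-biased, was at 848, 966, 1487, 1171 and 1126 at 4 weeks and 1167, 451, 660.0, 457 and 569 at 8 weeks and not called (-0.81, limma adjusted p = 0.137). Of 7 female-biased genes 0 were called (1 higher and 2 lower at an unadjusted p under 0.05), among them the oestrogen receptor gene Esr1 (-0.46, SE 0.11, limma adjusted p = 0.0873), whose arrays did not overlap.

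The largest change of all genes was that of a steroid carrier. Serpina6 encodes corticosteroid-binding globulin, the plasma carrier of corticosterone that is best known from liver. Its signal was 619.6, 1262, 1009, 1339 and 1823 at 4 weeks and 43.5, 88.2, 64.5, 135 and 99.0 at 8 weeks, after a mean of 11501 at 1 week, and the fall after 4 weeks was 11.9-fold (log2 change -3.57, SE 0.28, limma adjusted p = 6.70e-06). Akr1c14, a 3-alpha-hydroxysteroid dehydrogenase that inactivates steroids, went the other way, from 336, 460.3, 368, 496 and 254 at 4 weeks to 641, 1000.3, 738, 1066 and 1366 at 8 weeks (log2 change 1.28, SE 0.22, limma adjusted p = 0.0108). These were the 2 called among 24 steroid receptor and steroid enzyme genes. Of 14 adrenal gland markers tested 0 were called and 0 had an unadjusted p under 0.05. The mean log2 level of the list's 15 genes on the array ran from 6.93 to 7.84 at 4 weeks and from 7.43 to 7.79 at 8 weeks.

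Hormone systems of growth gave 0 calls. In the list for growth hormone and the IGFs, 4 of 20 tested were higher and 0 lower at an unadjusted p under 0.05 (median 0.07). Igfbp3, the main carrier of IGFs in plasma, was at 1702 to 2481 at 4 weeks and 2538 to 3233 at 8 weeks without overlap, just outside the threshold (log2 change 0.52, SE 0.12, limma adjusted p = 0.061). Ghr was at 0.33 (SE 0.14, limma adjusted p = 0.503), Igf1 at 0.08 (SE 0.13) and Igf1r at -0.08 (SE 0.13). Of 21 fetal and imprinted growth genes 0 were called (2 lower at an unadjusted p under 0.05). Igf2, the fetal growth factor, was at 1452 at 1 week, 294 ± 90.8 (SD, n = 5) at 4 weeks and 279 ± 35.7 (SD, n = 5) at 8 weeks.

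**Figure D3:**
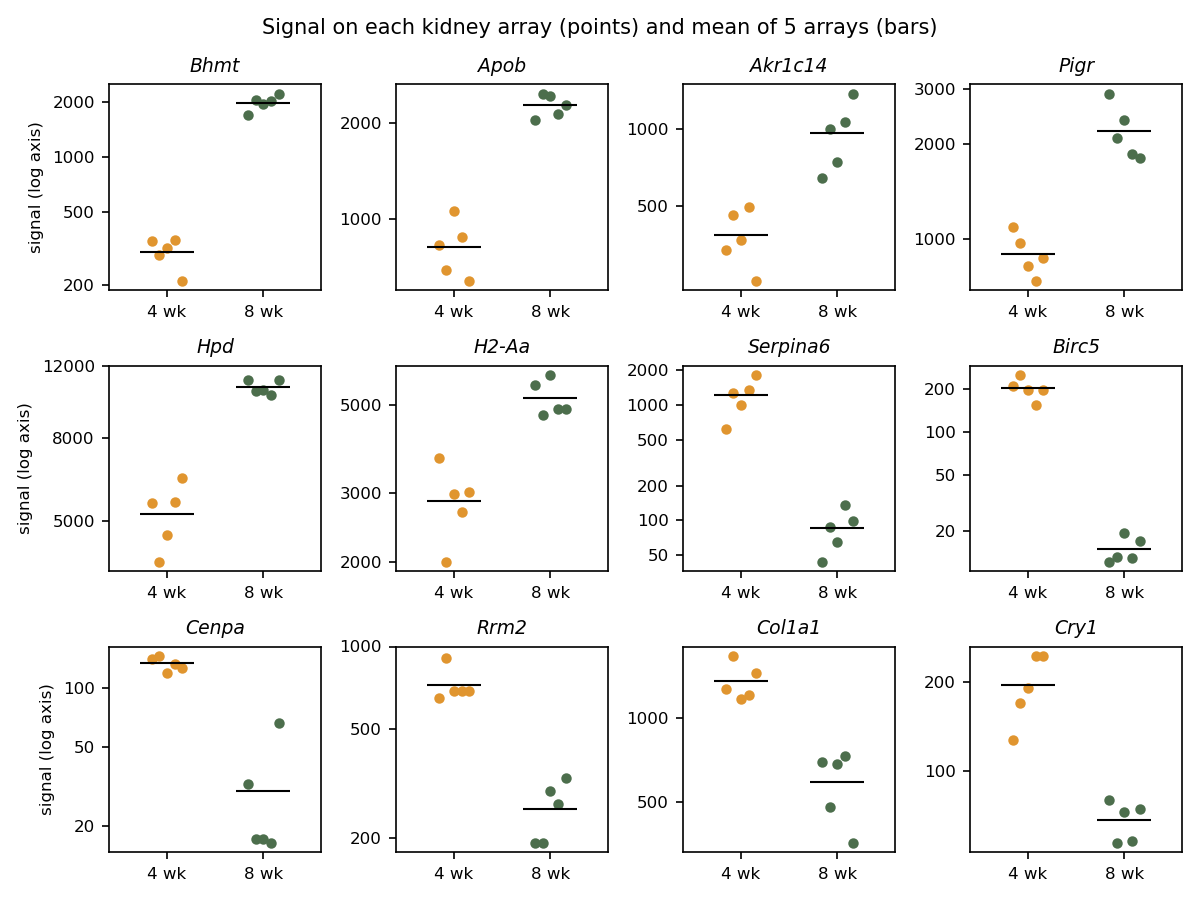
Signal (log axis) of 12 genes on each of the 5 kidney arrays of 4 weeks and the 5 of 8 weeks (points, in replicate order from left to right), with the mean of each group as a bar. The 6 genes from Bhmt to H2-Aa are higher and the 6 from Serpina6 to Cry1 lower on every array of 8 weeks than on any of 4 weeks.

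Transport along the nephron, the main work of the organ, gave 0 calls in 4 lists. Of 46 proximal tubule genes 7 were higher and 3 lower at an unadjusted p under 0.05 (median 0.07). At that level 3.28% of all genes were higher and 4.68% lower. The largest change was that of the organic anion transporter gene Slc22a7 (0.88, SE 0.25, limma adjusted p = 0.186), and the nearest to the threshold was the pump gene Abcc4 (0.58, SE 0.14, limma adjusted p = 0.0942). Lrp2, which encodes megalin, the receptor that reclaims filtered protein, was at 13967 ± 3198 (SD, n = 5) at 4 weeks and 15252 ± 1026 (SD, n = 5) at 8 weeks. Of 25 genes of the loop of Henle and distal convoluted tubule 0 had an unadjusted p under 0.05. Slc12a1, the target of loop diuretics, was at 0.11 (SE 0.12) and Slc12a3, that of thiazides, at 0.05 (SE 0.11). Of 25 collecting duct genes 1 was higher and 2 lower at an unadjusted p under 0.05, and of 14 podocyte genes 1 was lower.

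Blood pressure, vitamin D and injury genes were mostly outside the threshold too. Npr3, the clearance receptor for natriuretic peptides, rose from 184 to 315 to 339 to 414 (log2 change 0.68, SE 0.13, limma adjusted p = 0.0204), the 1 call among 15 genes of the renin-angiotensin and prostaglandin list. Agt was at -0.34 (limma adjusted p = 0.631) and Ace at 0.01. Of 18 vitamin D, calcium and phosphate genes 0 were called (1 lower at an unadjusted p under 0.05). Cyp24a1, which degrades vitamin D hormone, varied within both ages, at 2394, 985, 1864, 2633 and 2937 at 4 weeks and 1479, 485, 1582, 1556 and 1264 at 8 weeks. Of 15 genes of tubule injury and repair 0 were called (1 lower at an unadjusted p under 0.05), with Lcn2 at 182 to 242 at 4 weeks and 164 to 286 at 8 weeks.

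Transcripts of antigen presentation included some that rose. In the antigen presentation list, which holds the MHC class II genes, 2 of 18 tested rose and 0 fell, their median was 0.38 against 0.0037 for all genes, and 9 were higher and 0 lower at an unadjusted p under 0.05. Of all genes 0.227% rose and 3.28% were higher at that level. H2-Aa, the alpha chain of class II in this strain, was at 3668, 1996, 2971, 2673 and 3008 at 4 weeks and 5641, 4724, 5978, 4884 and 4899.5 at 8 weeks, all arrays of 8 weeks above those of 4 weeks (log2 change 0.89, SE 0.17, limma adjusted p = 0.0234). Its chaperone Cd74 was at 3006, 2164, 1783, 2137 and 2510.5 at 4 weeks and 5129, 3707, 3857, 4023 and 3444 at 8 weeks (log2 change 0.80, SE 0.17, limma adjusted p = 0.043), and the beta chain H2-Ab1 was at 0.80 (SE 0.18, limma adjusted p = 0.0551), just outside, and was called on the 10 arrays alone (limma adjusted p = 0.0367). Leaving out 1 array left H2-Aa called in 3 of 10 fits and Cd74 in 1, and without 4 weeks replicate 1 the list had 4 genes that rose.

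Cells that carry class II were set beside these genes. Of 23 macrophage and dendritic cell genes tested 0 were called, with 9 higher and 0 lower at an unadjusted p under 0.05 (median 0.24). At that level 3.28% of all genes were higher. The mean log2 level of the list's 26 genes on the array ran from 7.86 to 8.41 at 4 weeks and from 8.24 to 8.47 at 8 weeks. Of 9 genes of T and NK cells and 10 of B and plasma cells 0 were called and 0 had an unadjusted p under 0.05. How far the number of macrophages takes part in the class II values was not tested. Cxcl9, an interferon-induced chemokine that attracts T cells, was at 57.9, 72.4, 73.8, 53.8 and 53.2 at 4 weeks and 120.5, 205, 158, 124 and 125 at 8 weeks (log2 change 1.04, SE 0.17, limma adjusted p = 0.00693), the 1 call among 25 interferon response genes. Its mean was 16.6 at 1 week, 62.2 at 4 weeks and 147 at 8 weeks. Cxcl9 thus reached the level of 117.9 needed for a test at 8 weeks only. With the other ages below that level, a fall of Cxcl9 from 4 to 8 weeks could not have been called. Pigr, the receptor that carries IgA across epithelia, rose 2.42-fold, from 736 to 1091 to 1813 to 2887 (log2 change 1.27, SE 0.16, limma adjusted p = 9.50e-04), while Ifitm1, an interferon-induced membrane gene, fell by 0.71 with overlapping arrays.

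Among the genes of the circadian clock, the repressor genes Cry1 and Per3 fell and other repressor genes passed the test in neither direction. Of 20 clock genes tested 2 fell and 0 rose, with 3 higher and 3 lower at an unadjusted p under 0.05. Cry1, a repressor of the clock, was at 127, 170.0, 192, 246 and 245 at 4 weeks and 79.7, 57.0, 72.7, 57.9 and 74.2 at 8 weeks (log2 change -1.30, SE 0.19, limma adjusted p = 0.00266). Per3, another repressor, was at 868, 815, 852, 898 and 781 at 4 weeks and 454, 530.1, 592, 469 and 580.3 at 8 weeks (log2 change -0.67, SE 0.10, limma adjusted p = 0.00361). The activator Arntl was at 1.01 (SE 0.23, limma adjusted p = 0.0623), Per2 at -0.53 (SE 0.19, limma adjusted p = 0.409) and Dbp at -0.29 (SE 0.20). Nr1d1, a repressor of Arntl, was higher on all 5 arrays of 8 weeks (709 to 1045) than on any of 4 weeks (441 to 707), but was not called (0.56, SE 0.28, limma adjusted p = 0.673). The labels give no time of day for the collection, so a difference in hour and one in age cannot be told apart here. Of 18 genes that respond to glucocorticoids 0 were called (1 higher and 3 lower at an unadjusted p under 0.05), with Fkbp5 at -1.15 (SE 0.25, limma adjusted p = 0.0556) and Zbtb16 at -1.48 (SE 0.41, limma adjusted p = 0.171).

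**Figure D4:**
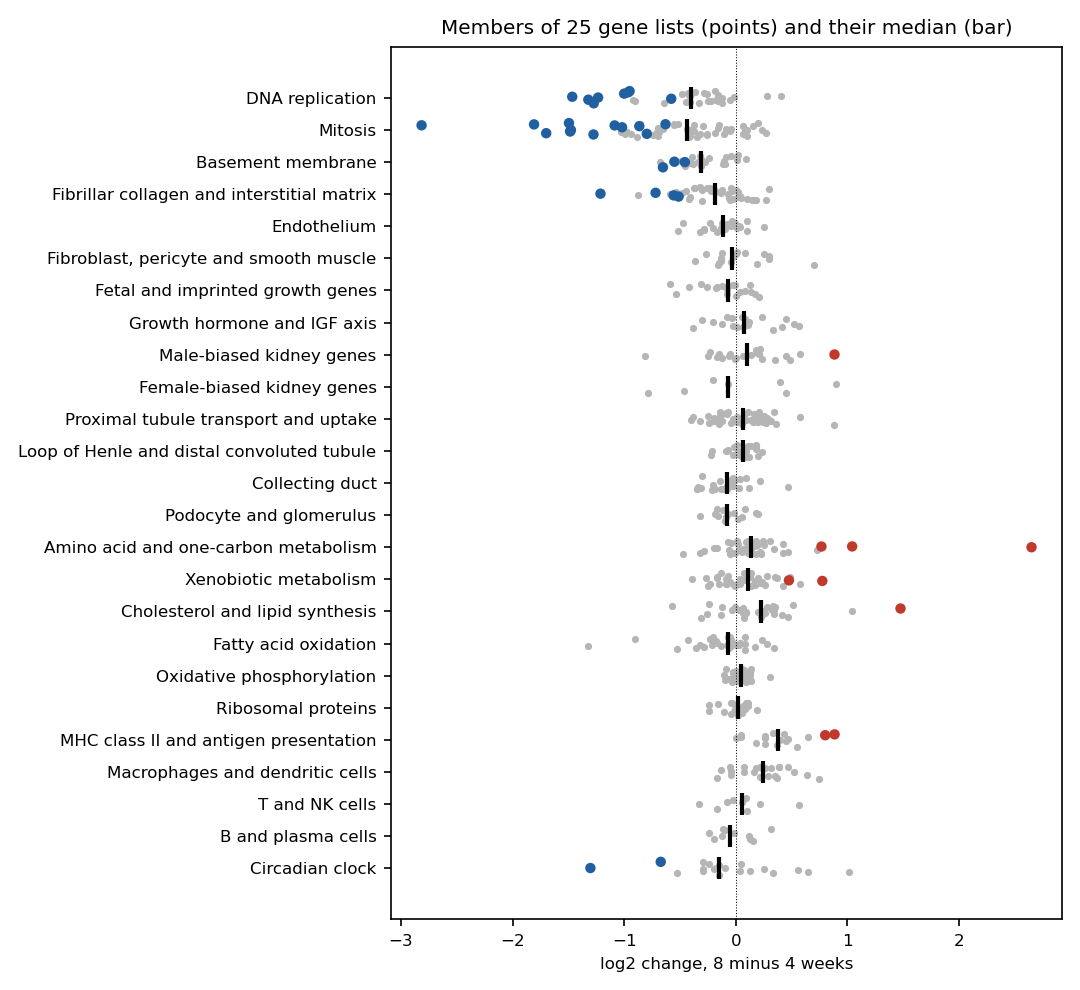
Log2 change from 4 to 8 weeks (horizontal axis) of the tested members of 25 gene lists (points, one row per list), with the list's median as a bar, called members that rose in red, called members that fell in blue and the median of all genes as a dotted line. The medians of mitosis (-0.44), DNA replication (-0.40) and basement membrane (-0.32) lie farthest to the left and that of the antigen presentation list (0.38) farthest to the right.

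Of the 85 genes 43 are in at least 1 list and 42 in none. Among the others that rose, Ceacam2 (39.0, 98.3, 178, 218 and 79.0 at 4 weeks and 276, 448, 522, 504 and 568 at 8 weeks, log2 change 1.93, SE 0.36) and Ceacam1 (0.73, SE 0.12) encode closely related adhesion molecules, whose probe sets may read both. Ceacam2 was called in 4 of the 10 fits without an array. Esm1, a proteoglycan of activated endothelium, rose from 205 to 304 to 518 to 679 (log2 change 1.16), Fabp7, a fatty acid binding protein known from glia, from 152 to 246 to 416 to 474 (1.13), and the plasma protein genes F5, coagulation factor V, and Cp, ceruloplasmin, by 0.78 and 0.63. Fam107a, a stress-induced actin regulator, rose by 0.67, and Dkk2, a Wnt modulator, by 0.62. Tssk4, a kinase known from spermatids, rose from 31.5 to 98.5 to 149 to 204 (log2 change 1.33), all 5 arrays of 4 weeks lying under the level of 117.9. The group means of Ceacam2 and Tssk4, taken on the log2 scale, reached the level needed for a test at 8 weeks only. With the other ages below that level, a fall of either gene from 4 to 8 weeks could not have been called.

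Further genes that fell were Mreg (-1.0, SE 0.17), which acts in melanosome transfer, the kinase gene Mapk13 (-0.82), the amino acid carrier gene Slc38a2 (-0.62) and the tetraspanin gene Tspan4 (-0.75). Trim59, a ubiquitin ligase, fell by 0.89, Nt5dc2 by 0.57, Tent5c by 0.70 and Eva1b by 0.54. Of the 85 genes 46 were called in all 10 fits that leave out 1 array, and all 85 kept their sign in those fits. Cp, Galnt18 and Zfp142 were called in none of the 10. Another probe set above 117.9 was at hand for 35 of the genes, 63 probe sets in all, of which 55 changed in the same direction (38 with an unadjusted p under 0.05) and 8 in the opposite one (0 with an unadjusted p under 0.05). The 8 belong to Adamts9, Ampd2, Fignl1, Rragd, Sparc, Top2a and Zfp142.

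The lung was measured at the same ages and shares no array with the kidney, although 3 of the 5 numbers in the descriptions of the kidney and lung samples are the same at each age and may mark the same animals, so it shows which of these changes also occurred in another organ. On 14 lung arrays 225 of the 13644 genes (1.65%) were called between 4 and 8 weeks. The array labelled lung 1 week replicate 4 was left out of that fit, since its lung and heart marker genes Sftpc and Myh6 go against its label, and with it 12 genes (0.0880%) were called. Of the 85 kidney genes 11 were among the 225, which is 12.9% of the kidney genes and 4.89% of the lung genes. In the same direction were the matrix genes Col3a1 (-0.56 in kidney and -0.43 in lung), Col6a1 (-0.72 and -0.57), Col4a5 (-0.46 and -0.55), Fstl1 (-0.76 and -0.57) and Adamts9 (-0.74 and -0.44), as were Vegfd, Tspan4, the clock gene Per3 (-0.67 and -0.92) and H2-Aa (0.89 and 0.40). Akr1c14 rose in kidney (1.28) and fell in lung (-0.81, limma adjusted p = 0.00151), and Mreg fell in kidney (-1.0) and rose in lung (0.75, limma adjusted p = 0.0216).

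The difference between the organs was tested as a contrast of both changes in 1 fit. With all 40 arrays 8 genes differed (0.0586%), 6 with the kidney lower. These were Serpina6 (kidney minus lung -3.31, SE 0.52, limma adjusted p = 0.00159), Birc5 (-2.74, SE 0.26, limma adjusted p = 2.46e-08), Fignl1 (-1.92), Cenpa (-1.90, limma adjusted p = 0.0195), Stmn1 (-0.93, limma adjusted p = 0.0113) and Cox6b2 (-0.91). The second probe set of Fignl1 changed the other way in kidney (0.31), so its difference from lung is uncertain. In lung Birc5 changed by -0.07, Cenpa by 0.10 and Stmn1 by 0.06, none of them called. The 2 with the kidney higher were Apob (1.54, SE 0.32, limma adjusted p = 0.0452), which changed by -0.07 in lung, and Mest, an imprinted gene, which was at 0.08 in kidney and -0.70 in lung.

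Without the arrays labelled lung 1 week replicate 4 and heart 1 week replicate 5, which both go against their labels, 30 genes differed (0.220%), 11 with the kidney higher and 19 with it lower. Beside the 8 these include the division genes Rrm2 (-1.31, limma adjusted p = 0.0251 on these 38 arrays), Mcm6 (-1.12, 0.0148), Ccnb2 (-1.42, 0.0422) and Nuf2 (-1.60, 0.0387), as well as Akr1c14 (2.09, 3.35e-06), Esm1 (1.80, 0.00263), Ddc (0.98, 0.00216) and Mreg (-1.75, 3.67e-04). For Mki67, at -1.50 in kidney and -0.11 in lung, the difference was not called on 38 arrays (limma adjusted p = 0.219), nor was that of Bhmt (limma adjusted p = 0.055), which changed by 0.45 in lung.

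**Figure D5:**
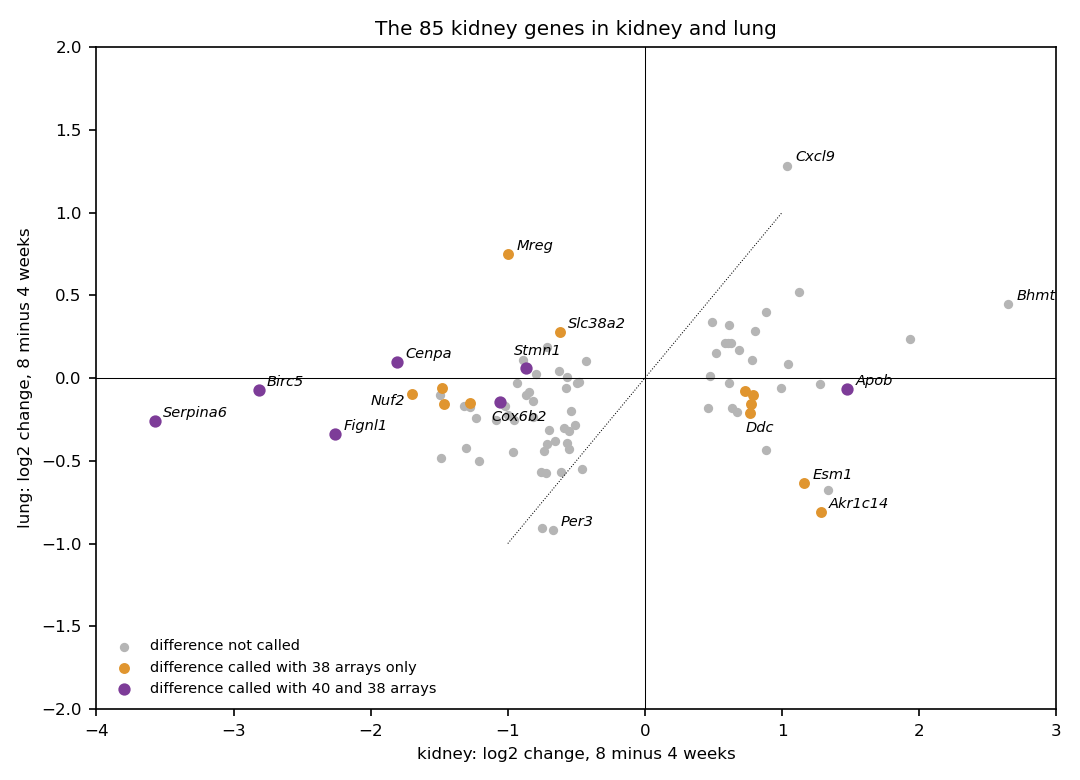
Log2 change from 4 to 8 weeks in kidney (horizontal axis) and in lung (vertical axis, fit of 14 lung arrays) of the 85 genes called in kidney, with genes whose difference between the organs was called with 40 and with 38 arrays in purple and with 38 only in orange, and equal changes on the dotted line. Birc5, Cenpa and Apob lie near 0 on the lung axis, Serpina6 lies at -0.26 (SE 0.35) there, and Per3 lies below the dotted line at -0.92 in lung.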

How the data were processed

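Transcripts were measured in kidney, lung and heart of male mice on 40 arrays, 1 per sample, of which the 10 kidney arrays of 4 and 8 weeks are compared here. The deposited values are intensity values on a linear scale, and the submitters' processing notes name RMA and Partek 6.6 without giving their steps. RMA writes log2 values and these are linear, so how the probes were summarised is not given in the sources used here. There are no detection calls, and the number of arrays and the signal over background limit the precision.

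The array has 45101 probe sets: 34945 name exactly 1 gene symbol, 932 name several, and 9224, controls included, have no symbol. Probe sets with 1 symbol cover 18193 genes, each represented by the probe set with the highest mean over the 40 arrays. The contrast of 8 minus 4 weeks was fitted with lmFit and eBayes of limma 3.58.1 (R 4.3.3) on log2(signal + 16) of all 15 kidney arrays, which share 1 estimate of the spread. Kidney minus lung was a contrast in 1 fit of 40 arrays. The p-values measure the spread between arrays of animals that the design text calls separate. Arrays with the same replicate number did not deviate together (residual correlations from -0.16 to 0.06 between the ages in kidney, and from -0.06 to 0.12 and -0.026 to 0.034 between kidney and lung at 4 and at 8 weeks), so the numbers were not used as pairs. Arrays of both organs that share the number in their description, which may mark the animal, had correlations from -0.06 to 0.18 at 4 weeks and 0.0093 to 0.026 at 8 weeks.

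Genes were grouped in 45 lists with 1211 entries, 1073 of them present on the array. The members and lists were chosen with earlier results of these data known, so a list's count is not independent support. Named genes were selected by rule: the 15 largest rises and 15 largest falls among called genes without overlap, up to 6 called members per list, the 5 largest differences from lung per direction, and a fixed set. Other called genes were named after their values were seen. Motifs were searched in RefSeq promoter windows (GRCm38.p6), the first listed for a gene. Other software was the R package data.table (version 1.17.8), Python 3.11.15 and, for the plots, matplotlib 3.10.9. Alternatives were tried for the offset, filter, normalization, probe set, arrays in the fit and block, and each array was left out in turn.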

Additional observations from a re-analysis of the deposited data

Results flagged for a closer look

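Among 272 groups of 5 values examined (named genes, control probe sets and list means at each age), 20 held an array whose gap to the nearest other exceeded Dixon's 95% critical value of 0.71 of the group's range, against the 13.6 that chance gives at 1 in 20, and 10 of the 20 were on the array of 4 weeks replicate 3. The groups come from the same 10 arrays and share genes, so 1 deviating array can pass in many groups. The 20 are therefore not separate outliers to be set against chance. On the array of 4 weeks replicate 3, Pcna was highest at 4324 (others 2872 to 3036), Slc12a3 highest at 12674 (others 9616 to 10224), Alb lowest at 322.5 (others 390.5 to 416) and Star lowest at 69.5 (others 229.6 to 297). The mean log2 levels of 24 of the 45 lists were lowest on that array among those of 4 weeks, and 8 were highest. For 5 lists the gap passed the critical value: fibrillar collagen and interstitial matrix at 9.24, podocyte at 9.64, tubule injury at 7.58, B and plasma cells at 7.17, and pancreas and spleen at 5.96. Its hybridisation controls were at 12.27. On 8 weeks replicate 5 these controls were at 12.73, the actin 3' minus 5' difference was 0.985 and Egf was at 31173 (others 23361 to 25268).

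Among the division genes, 4 weeks replicate 2 was highest for Rrm2 (904.7, others 648 to 689) and Pbk (574.8, others 398.5 to 439.8), and 4 weeks replicate 4 was lowest for Gins2 (106, others 189 to 232) and Top2a (220.3, others 295 to 314). On 8 weeks replicate 2 Cyp24a1 was at 484.9 (others 1264 to 1582), Slco1a1, which was not tested, at 50.6 (others 119 to 157), and the mean of the glucocorticoid list at 10.50 (others 10.69 to 10.76).

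The change from 4 to 8 weeks differed between kidney and lung, by the contrast of both changes, for 8 genes: Serpina6 (-3.31), Birc5 (-2.74), Fignl1 (-1.92), Cenpa (-1.90), Stmn1 (-0.93), Cox6b2 (-0.91), Mest (0.78) and Apob (1.54, all kidney minus lung on the log2 scale). That of Fignl1 is uncertain, since its second probe set changed the other way in kidney.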

How the results depend on the processing

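The count of 85 genes kept within 1.5 times its value under 11 other settings, from 66 (mean of all probe sets) to 126 (filter at the 60th percentile), and under an added block for arrays with high hybridisation controls (116). It was 51 with the probe set of the second highest mean, where 11816 genes were tested, and 54 without the 2 arrays of high hybridisation controls, an alternative chosen after seeing the data. Leaving out 1 array gave 52 (without 8 weeks replicate 2) to 83 (without 4 weeks replicate 3), with 55 without 4 weeks replicate 4 and 56 without 4 weeks replicate 5. The second probe set reversed Fignl1 (0.31), Top2a (0.11), Adamts9 (0.30), Ampd2 (0.0062) and Zfp142 (-0.078). The cause was not tested. The replicate number as a block gave 75 genes, 64 of them among the 85, with 2 interstitial and 1 basement membrane genes in place of 4 and 3, and 6 genes in kidney minus lung, 4 of them among the 8. The numbers in the titles do not pair the kidney arrays. Kidney and lung arrays share numbers in their descriptions, and with these as a random block, chosen after seeing the data, the same 8 genes were called. The mean of all probe sets gave 5 replication and 7 mitosis genes in place of 8 and 12. The count of 8 for kidney minus lung was 85 on the 20 arrays alone and 30 without the 2 arrays that go against their labels, and 3 to 11 with 1 array left out, the lowest without kidney 8 weeks replicate 3 and the highest without kidney 8 weeks replicate 1. Of 3143 single-gene values under alternatives 2603 stayed on their side of the threshold, 526 lost the call, 9 gained it and 5 reversed. Genes under a signal of 117.9 were not tested, and dim ones have compressed folds.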

Other observations

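Lists not described above gave no call except as stated. Of 20 nephron progenitor and ureteric bud genes tested 0 were called in limma (2 lower at an unadjusted p under 0.05), with Wnt4, a signal that turns progenitors into epithelium, at -0.75 (SE 0.29). Of 27 heat shock and endoplasmic reticulum stress genes 0 were called (1 higher and 1 lower at an unadjusted p under 0.05), and of 22 immediate early genes, which respond to handling and dissection, also 0 (2 higher and 2 lower). Of 10 complement genes 0 were called (2 higher at an unadjusted p under 0.05), the largest change being that of C8a (0.82, SE 0.31).

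Markers of other cells that a whole kidney can hold gave 0 calls as well. The numbers with an unadjusted p under 0.05 were 1 of 5 erythroid genes (lower), 1 of 10 neutrophil and mast cell genes (higher), 1 of 7 urothelial genes (lower), 0 of 4 skeletal muscle genes and 0 of 3 genes of pancreas and spleen. Ucp1, the uncoupling protein of brown fat, had a mean signal of 610.3 at 4 weeks and 30.4 at 8 weeks with an SE of 1.10 on its log2 change of -2.55, and was not called (limma adjusted p = 0.539).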
